A study of Mus musculus with 65 samples.

Results

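A set of 7 genes of the B-lymphocyte lineage, Cd74, Cd79a, Cd79b, Cd22, Ebf1, Ikzf1 and Ikzf3, were followed through 65 single hematopoietic stem cells of old mice. They were chosen by name, as 7 of the 18036 entries of the count table, and all 7 were present in it. A count was found for 6 of them, and Ebf1 stood at 0 in every cell. The cells came from the bone marrow of SCL-tTAxH2B-GFP mice, heterozygous for both transgenes and older than 20 months, in which the stem cell leukemia (SCL) promoter drives a transactivator of a histone H2B-GFP fusion. Marrow depleted of lineage-positive cells was sorted for the LSK CD34-/low Flk2- CD48- CD150+ phenotype of long-term stem cells. GFP-positive cells formed the label-retaining group (alr-hsc, 37 cells) and GFP-negative cells of the same kind of mouse the non-label-retaining group (anlr-hsc, 28 cells). Before lysis both groups were held overnight at 3% oxygen, with no growth factor added. Then polyadenylated RNA was amplified as full-length cDNA. The 4 biological repeats held 9, 9, 10 and 9 label-retaining cells and 8, 4, 6 and 10 non-label-retaining cells, and nothing in the labels says how many animals were pooled in a repeat.

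The B lineage begins when multipotent progenitors, primed by the zinc finger factor Ikaros (Ikzf1), switch on the factor Ebf1, which opens the B-cell gene programme. Cd79a and Cd79b are that programme's signalling chains of the B-cell receptor, Cd22 is a sialic acid-binding receptor that dampens their signal, Cd74 is the invariant chain that guides MHC class II molecules to peptide, and Aiolos (Ikzf3) is the Ikaros relative of later B cells. Long-term stem cells are known to express Ikzf1 at a low level, whereas Cd79a, Cd79b and Ikzf3 belong to committed cells.

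The promoters of Cd79a and Ikzf1 are shown because these genes were never found in the same cell. Whether their sequences bear on this was not tested. Ikzf1 also shared no cell with Cd79b or Ikzf3, and it was absent from all cells of repeat 2, where Cd79a was highest. The 250 bases before a listed transcription start are given 5′ to 3′ from RefSeq on GRCm38.p6, both from the plus strand, at chr7:24897247-24897496 for Cd79a and chr11:11685675-11685924 for Ikzf1. The Ikzf1 window lies inside the annotated span of the gene, and is 1 of 2 listed for it. Capitals mark a match to CCCNNGGG, the core recognised by Ebf1, to the octamer ATTTGCAT of immunoglobulin promoters, or to TGGGAA, an Ikaros core, each searched on both strands.
Cd79a: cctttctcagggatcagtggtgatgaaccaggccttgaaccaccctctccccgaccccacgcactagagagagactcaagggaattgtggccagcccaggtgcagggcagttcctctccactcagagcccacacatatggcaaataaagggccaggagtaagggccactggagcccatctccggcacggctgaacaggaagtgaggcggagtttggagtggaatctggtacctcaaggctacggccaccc
Ikzf1: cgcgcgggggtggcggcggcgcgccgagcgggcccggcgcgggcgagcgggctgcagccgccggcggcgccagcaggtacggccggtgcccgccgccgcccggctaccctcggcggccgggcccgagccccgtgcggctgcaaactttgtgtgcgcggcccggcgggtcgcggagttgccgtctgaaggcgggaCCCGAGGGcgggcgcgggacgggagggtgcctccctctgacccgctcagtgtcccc
The Cd79a window held no exact match to the motifs and the printed Ikzf1 window held 1 match to CCCNNGGG, while the other Ikzf1 window (chr11:11689927-11690176, not printed) held none. Over 32851 promoter windows of the same length, CCCNNGGG was found in 11.8%, ATTTGCAT in 1.60% and TGGGAA in 21.6%. A match is a run of letters and not a bound site. Only exact matches were marked, so a window without 1 may still hold a site that departs from the string. The Cd79a window, for example, holds ctcaaggg, which differs from CCCNNGGG in 1 base.

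The members lie on mm10 at chr18:60803849-60812652 (Cd74), chr7:24897497-24901858 (Cd79a), chr11:106311341-106314562 (Cd79b), chr7:30865404-30880342 (Cd22), chr11:44618100-45008096 (Ebf1), chr11:11684962-11772930 (Ikzf1) and chr11:98464610-98546031 (Ikzf3). Counting by strand is not stated, and Cd74, Ikzf1 and Ikzf3 overlap the annotated genes Mir5107, Gm11999 and Gm25106, whose reads could not be told from theirs.

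Depth differed widely between cells. The label-retaining cells had 27954 to 20516069 counts, with a median of 264894 counts and 1906 genes. The non-label-retaining cells had 86.1 to 661078 counts, with a median of 118056 counts and 925.5 genes. The 65 cells carried 65 different pairs of an i7 and an i5 index, drawn from 12 i7 and 7 i5 indexes, and an index position numbered from 5 to 77. Positions were filled repeat by repeat, so cells with the same i5 index came mostly from 1 repeat, whereas cells with the same i7 index came from different repeats. A cell with at least 0.5 estimated counts of a gene, which rounds to 1, is called a carrier here.

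The library labelled label-retaining cell 16 stood apart from the others, and with it cell 15. Cell 16 (repeat 2, i5 index 504, position 29, 1679510 counts) held 50330 counts of Cd74, 19625 of Cd79a, 7131 of Cd79b and 4986 of Ikzf3, with 0 of Cd22, Ebf1 and Ikzf1. Cell 15 (repeat 2, the same i5 index, another i7 index, position 28, 544853 counts) held 1066, 423, 171 and 80 counts of the same 4 genes, 1.5 of Cd22 and 0 of Ebf1 and Ikzf1. No other cell had more than 5 counts of Cd74, 7 of Cd79a, 0 of Cd79b or 1 of Ikzf3. Cell 16 alone held 97.9%, 97.8%, 97.7% and 98.4% of all counts of Cd74, Cd79a, Cd79b and Ikzf3.

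**Figure D1:**
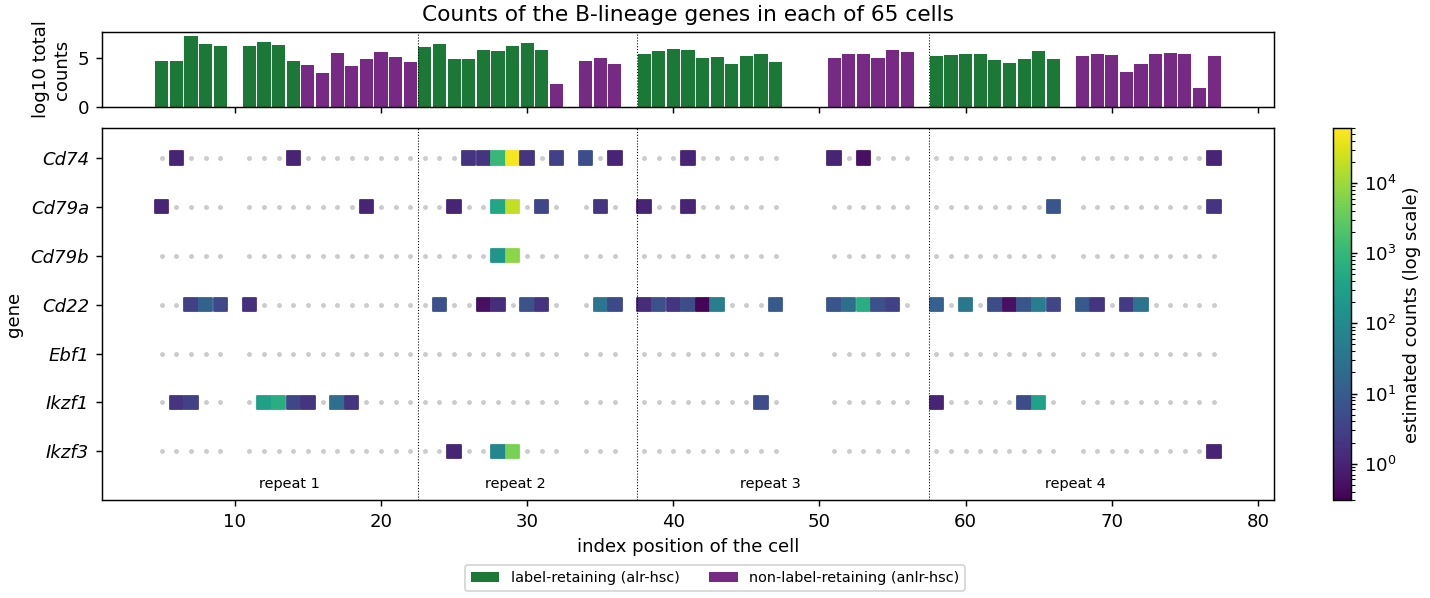
Estimated counts of the 7 B-lineage genes (rows) in each of 65 cells, ordered by index position on the x axis. Squares are coloured by count on a log scale, grey dots are cells at 0, bars above give the total counts per cell on a log10 scale in the colour of the group, and dotted lines part the repeats. Cd74, Cd79a, Cd79b and Ikzf3 are high at positions 28 and 29, where Cd22 and Ikzf1 are low or at 0.

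Other B-cell genes were high in the same cell. Of the 28 genes of a B-cell marker list 16 were in the table, 7 had a count in cell 16 and 5 had over 1000, which were Cd74, Cd79a, Cd79b, the IgM Fc receptor gene Fcmr (18593 counts) and the Fc receptor-like gene Fcrla (4843). The list took 5.99% of the counts of cell 16 and 0.406% of those of cell 15, against a median of 0.00513% and a range of 0 to 1.26% in the other 63 cells. The highest of these 63 was a cell with 238 counts in all, of which 3 were Cd74. Of the 6 plasma cell genes in the table, Mzb1, a chaperone gene of antibody-secreting cells, had 9897 counts in cell 16 and the other 5 had 0, among them Xbp1, a secretory factor gene carried by 10 label-retaining and 4 non-label-retaining cells. Further, the immunoglobulin loci Igk and Igh had 56598 and 31474 counts in cell 16. Neither is on the list, and both were chosen after their values were seen. The immunoglobulin genes that are on the list and in the table, Ighm, Ighd and Igkc, stood at 0 in every cell, cell 16 included. The stem-cell identity list took a small share of cell 16, with 10.8 counts in all, 0.000643% of its total. The median share in the other 63 cells was 0.0525%, with a range of 0 to 2.32%. Of these 63 cells, 16 had a share as low as cell 16 or lower. By number of genes it was not low: 3 of the 10 in the table had a count in cell 16, against a median of 2 in the other 63. Slamf1, Cd48 and Flt3, which are among the 10, had no count in any cell. By its B-cell genes cell 16 went against its label, and fold changes and carrier shares that rest on cells 15 and 16 are given with and without them.

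Cell 15 held the genes of cell 16 in nearly 1 proportion. Its counts were 2.12% of those of cell 16 for Cd74, 2.16% for Cd79a, 2.40% for Cd79b and 1.60% for Ikzf3. A total of 27 genes, chosen after their values were seen, had at least 1000 counts in cell 16 and under 50 in each of the 63 cells other than 15. All 27 had counts in cell 15, at 1.26 to 3.96% of cell 16 (median 2.13%). Of all 326 genes with at least 1000 counts in cell 16, 280 stood between 1 and 5% of that count in cell 15, 45 above and 1 below. Cell 15 also had counts that cell 16 lacked, among them 303 of the neutrophil granule gene Camp, and 2738 of the haemoglobin gene Hbb-bs against 29.5 in cell 16.

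**Figure D2:**
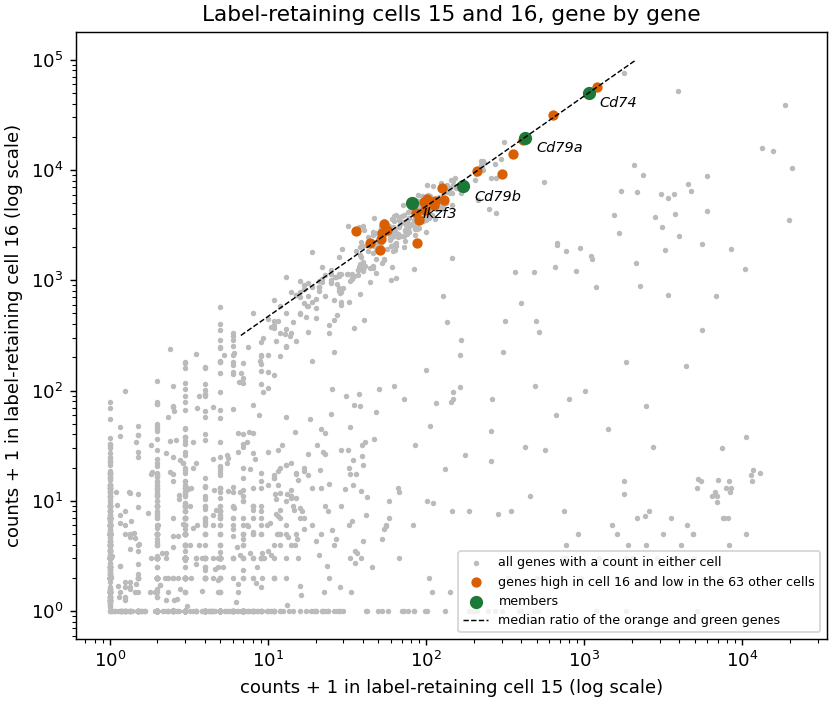
Counts plus 1 of each gene in label-retaining cell 15 (x axis) and label-retaining cell 16 (y axis), both on log scales. Grey points are all genes with a count in either cell, orange and green points the 27 genes at 1000 or more in cell 16 and under 50 in the 63 other cells, with the 4 B-lineage genes among them in green. The coloured points lie along the dashed line at the median ratio of 2.13%.

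Other cells at neighbouring index positions varied in this respect, some with lower and some with higher proportions. In 15 other ordered pairs of neighbours with at least 10 genes of this kind, the median over genes was 0% in 9 pairs, and all genes had a count in the second cell in 5. Among these 5, for cell 17 and its neighbour cell 18, all 50 genes high in cell 17 had a count in cell 18, at a median of 0.658%. For cell 8 and its neighbour cell 9, all 31 were found, at a median of 0.723%. The other medians were 0.87% for cell 3 and its neighbour cell 4 (17 genes) and 4.22% for cell 10 and cell 11 (10 genes). For cell 6 and cell 7 (17 genes) the median was 8.72%. The last 2 were above the 2.13% of cells 16 and 15. The cause of these proportions was not tested.

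Cd74, Cd79a, Cd79b and Ikzf3 were mostly found alone or at 1 to 7 counts outside cells 15 and 16. Of 37 label-retaining cells, 13 carried at least 1 of the 4 and 24 none, and of 28 non-label-retaining cells, 8 carried at least 1 and 20 none. All 4 were found together in 2 cells, which were cells 15 and 16, and 3 of the 4 in 1, non-label-retaining cell 28, with 1 count of Cd74, 2 of Cd79a and 1 of Ikzf3. Cd79b had no carrier beside cells 15 and 16. All 4 carriers of Ikzf3 carried Cd79a, which is 36.4% of the 11 carriers of Cd79a. Cd74 and Cd79a shared 4 cells, 28.6% of the carriers of Cd74 and 36.4% of those of Cd79a.

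The carriers of few counts lay along the indexes of cell 16. At least 1 of Cd74, Cd79a, Cd79b and Ikzf3 was found in 10 of the 10 other cells with i5 index 504, in 4 of the 6 other cells with the i7 index of cell 16, and in 6 of the 48 cells that shared neither index. Leaving out cell 15, the 4 genes summed to 23 counts in the cells of the same i5 index, 7.5 in those of the same i7 index and 12 in the rest. Cd74 was carried by label-retaining cells 13, 14 and 17 and non-label-retaining cells 9, 10 and 12, at 1 to 5 counts and all with i5 index 504. It was carried at 1, 0.5 and 1 counts by label-retaining cell 22 and non-label-retaining cells 15 and 28, all with the i7 index of cell 16. Cd79a was carried at 1 to 4 counts by 3 cells with i5 index 504 and at 1, 1 and 2 counts by 3 with the i7 index of cell 16. Of the 43 cells that shared neither index with cell 15 or 16, 3 carried Cd74 at 1 count each and 3 carried Cd79a, at 1, 1 and 7 counts. The 7 counts were in label-retaining cell 37, the highest value of Cd79a outside cells 15 and 16. The 2 cells of repeat 2 with another i5 index, label-retaining cells 10 and 11, carried none of the 4.

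**Figure D3:**
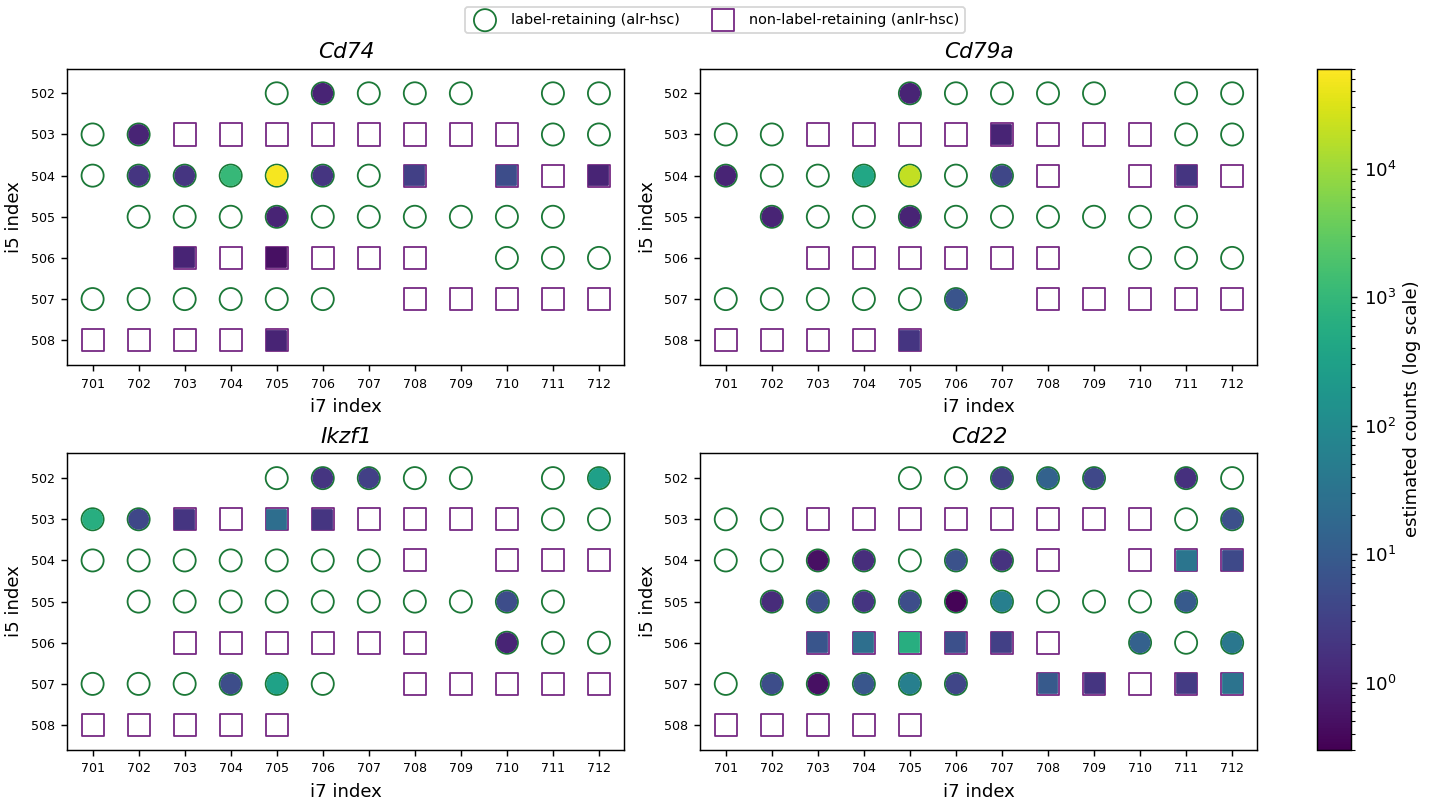
Cells placed by i7 index (x axis) and i5 index (y axis) for Cd74, Cd79a, Ikzf1 and Cd22. Circles are label-retaining and squares non-label-retaining cells, filled by estimated count on a log scale where it is above 0 and open at 0. The Cd74 counts lie mostly in the row of i5 index 504 and the column of the i7 index of that cell, which cross at cell 16, and 10 of the 12 Ikzf1 carriers lie in the rows of its 3 highest cells.

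A larger share along the i5 index was also found over other genes, with little difference along the i7 index. Over 1074 other genes with at least 1000 counts in some cell and 15 carriers or fewer, the cells with under 50 counts were carriers in 21.9% of cases where they shared the i5 index of a cell with 50 or more, in 7.61% where they shared its i7 index alone, and in 6.50% where they shared neither. Cells of 1 i5 index also share a repeat in most cases, and the part of each cannot be told apart. For Cd74 the 3 shares, taken from cells 15 and 16, were 66.7% of 9 cells, 27.3% of 11 and 6.98% of 43. Over the same cells they were 33.3%, 27.3% and 6.98% for Cd79a. For Ikzf3 they were 11.1%, 9.09% and 0%, and for Cd79b 0% in each, so the i5 share of both was below that over other genes. The number of cells with any of these genes, given before, pools the genes and is not comparable with a share per gene.

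Ikzf1 followed another set of cells. It was carried by 9 of 37 label-retaining cells and 3 of 28 non-label-retaining cells. The label-retaining carriers held 2, 3, 300, 628 and 4 counts in cells 2, 3, 7, 8 and 9 of repeat 1, 5 in cell 27 of repeat 3, and 1, 5 and 333 in cells 29, 35 and 36 of repeat 4. The non-label-retaining carriers held 2, 24 and 2 counts in cells 1, 3 and 4, all of repeat 1. No cell of repeat 2 and no non-label-retaining cell of repeats 3 and 4 had a count. The cells at 300 or more were thus 3 label-retaining cells in 2 repeats.

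The low Ikzf1 carriers mostly shared the i5 index of the high ones, at a share near that over other genes. Of the 9 carriers under 50 counts, 7 shared the i5 index of label-retaining cell 7, 8 or 36, out of 27 cells that did (25.9%). Another 2 shared neither index with them, out of 27 (7.41%). Of the 8 cells that shared the i7 index alone, 0 were carriers. Over the 1074 other genes the shares were 21.9% for the i5 index, 6.50% for neither and 7.61% for the i7 index alone. Here too, i5 index and repeat cannot be told apart. The 2 carriers that shared neither index, label-retaining cells 27 and 29, shared the i7 index 710 with each other. Cell 9, next in position to cell 8, had 0.637% of its Ikzf1 counts, beside the median of 0.723% for the 31 genes high in cell 8. All 3 non-label-retaining carriers had i5 index 503, that of cell 8. Ikzf1 shared 0 of its 12 carriers with the 11 of Cd79a, and 2 with the 14 of Cd74, label-retaining cells 2 and 9, where Cd74 stood at 1 count.

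Cd22 was the most widely found of the 7 genes. Its carriers were 22 of the 37 label-retaining cells, at 0.5 to 55.1 counts (median 5), and 11 of the 28 non-label-retaining cells, at 2 to 645 counts (median 7.5). The highest value, 645 counts in non-label-retaining cell 15, was 63.9% of all its counts. Cd22 was at 0 in cell 16, where Cd74, Cd79a, Cd79b and Ikzf3 were highest. Of its 34 values above 0, 21 were not whole numbers, so the authors' estimate gave parts of reads to this gene. Of the values of Cd74, Cd79a, Cd79b, Ikzf1 and Ikzf3, 2 of 14, 1 of 11, 1 of 2, 1 of 12 and 1 of 4 were not whole. Cd22 counts are reported as uncertain for that reason. Its carriers were deeper than the other cells, with median totals of 260875 and 141833 and 1725 and 1008 genes.

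Ebf1 was found in 0 of 37 and 0 of 28 cells. Carriers could thus make up as much as 9.49% of the label-retaining group and 12.3% of the non-label-retaining group (upper bound of the exact Clopper-Pearson 95% interval, counting error only). These bounds pool the cells of all repeats as if independent. They also count the 4 non-label-retaining cells under 10000 counts in full, so they may be too low. They limit detection at this depth and not expression.

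The comparison of label-retaining with non-label-retaining cells asked whether the carriers fell more often in 1 group. The repeat was the unit, and nothing in the labels says whether the repeats were separate animals. Label-retaining cells carried Cd79a in 21.7% ± 15.8 of cells of a repeat and non-label-retaining cells in 11.9% ± 10.3 (SD, n = 4 each, exact two-sided permutation p = 0.429, adjusted over 3489 genes 0.629), higher in 3 of 4 repeats. Ikzf1 was carried in 24.7% ± 24.9 and 9.38% ± 18.8 (exact permutation p = 0.371, adjusted 0.598), higher in 3 repeats and equal in 1. Cd22 was carried in 59.4% ± 13.9 and 43.3% ± 34.3 (exact permutation p = 0.457, adjusted 0.647), higher in 3 of 4. Cd74 was carried in 21.9% ± 24.2 and 29.6% ± 33.3 (exact permutation p = 0.743, adjusted 0.847), lower in 3 of 4. The groups overlapped for all 4 genes. Of the 3489 genes in at least 10 cells, 8.05% had repeats that did not overlap with the label-retaining cells higher, 93.3% had a larger share in label-retaining cells, and 0% passed the adjusted threshold of 0.05 (281 at an unadjusted p under 0.05). The smallest p that 4 against 4 repeats can give is 0.0286, and the median difference over all 3489 genes was 19.2 points. The 4 members differed by -7.64 to 16.1 points, below that median. Median totals were higher in label-retaining cells in repeats 1 and 2 and lower in repeats 3 and 4. The median number of genes detected was higher in label-retaining cells in all 4 repeats. It was 2523, 1687, 1569 and 1217 in repeats 1 to 4, against 1225.5, 1336.5, 1091.5 and 728 in non-label-retaining cells. After thinning each cell to 10000 counts the difference was -16.2 points for Cd22, 9.52 for Ikzf1, 8.33 for Cd79a and -4.17 for Cd74. Without cells 15 and 16 it was 5.82 points for Cd79a, -10.8 for Cd74, 16.5 for Cd22 and 15.3 for Ikzf1.

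**Figure D4:**
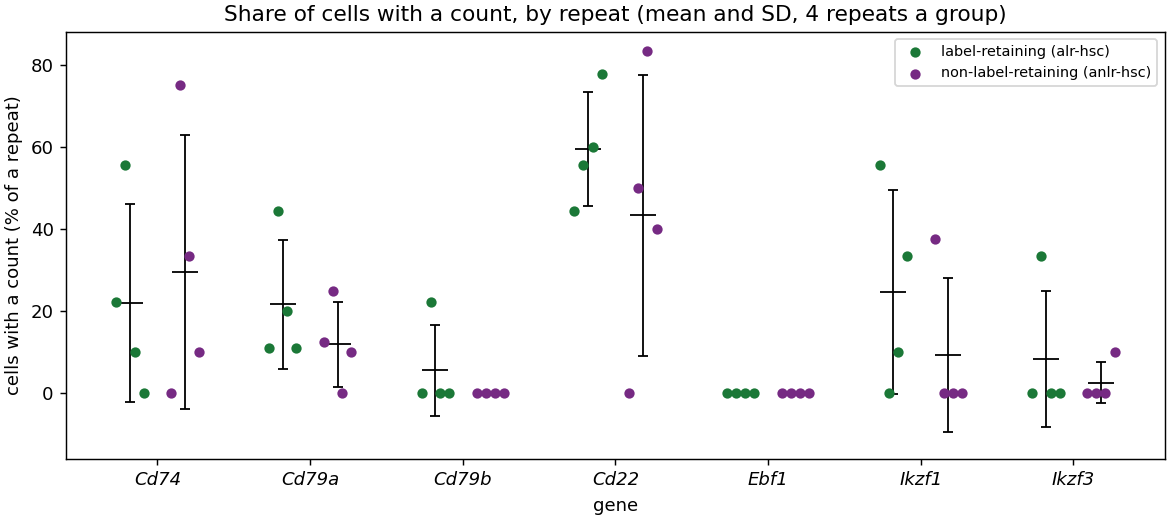
Share of cells with at least 0.5 counts of each gene (y axis, percent of the cells of a repeat), for label-retaining (left of each pair) and non-label-retaining cells. Each point is 1 of 4 repeats, from repeat 1 on the left to 4, and the bars give the mean and SD. The groups overlap for Cd74, Cd79a, Cd22 and Ikzf1, and Ebf1 is at 0 throughout.

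Cd79b and Ikzf3, found in fewer than 10 cells, were described only. Cd79b was carried in 22.2% of label-retaining cells of repeat 2 and in 0% of all other sets of cells. Ikzf3 was carried in 33.3% of label-retaining cells of repeat 2 and in 10% of non-label-retaining cells of repeat 4. Over the repeats the mean share differed by 5.56 points for Cd79b and 5.83 for Ikzf3, higher in label-retaining cells. Without cells 15 and 16 the differences were 0 and 1.07 points.

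Summed levels of Cd74, Cd79a, Cd79b and Ikzf3 in label-retaining repeat 2 came almost wholly from cells 15 and 16. In CPM (counts scaled to a common total) of a summed repeat, Cd74 stood at 0.0592, 4358, 0.327 and 0 in label-retaining repeats 1 to 4 and at 0, 46.1, 0.803 and 0.566 in non-label-retaining repeats. In each group repeat 2 was the highest. Cd79a stood at 0.0296, 1700, 0.653 and 4.17 in label-retaining and at 0.969, 10.3, 0 and 1.13 in non-label-retaining repeats, again highest in repeat 2. The 46.1 and 10.3 CPM came from 9 and 2 counts. Ikzf1 stood at 27.8, 0, 1.63 and 202 in label-retaining and at 27.1, 0, 0 and 0 in non-label-retaining repeats. Cd22 stood at 0.652, 1.38, 25.7 and 72.6 in label-retaining and at 0, 202, 367 and 25.2 in non-label-retaining repeats.

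No member passed the test of levels. A total of 4 members, Cd74, Cd79a, Cd22 and Ikzf1, passed the filter of a mean of at least 10 counts per cell and a count in 10 cells, of which a single high cell can meet the mean. Levels were tested by edgeR's quasi-likelihood test with Benjamini-Hochberg adjustment over 2786 genes. Each SE was worked back from the F statistic of that test and is not a separate measure of spread. The log2 fold change (label-retaining over non-label-retaining, ± SE) was 6.12 ± 2.67 for Cd74 (edgeR, adjusted p = 0.408) and 6.43 ± 2.60 for Cd79a (0.362). It was 3.03 ± 2.40 for Ikzf1 (0.565) and -4.43 ± 2.35 for Cd22 (0.474). The share of all genes called was 0% (10.8% at an unadjusted p under 0.05), and the median log2 fold change of all genes was 1.15. When every cell was first scaled to 1 common total (limma) it was 0.089 for Cd74, 2.84 for Cd79a, 2.09 for Ikzf1 and -2.28 for Cd22 (adjusted p from 0.573 to 0.990), and -2.54 for Cd22 when edgeR scaled by total counts alone. DESeq2 called 14 genes, none of them a member, and gave no p for Cd74 and Cd79a. Without cells 15 and 16, a choice made after seeing the data, the log2 fold change was -5.74 for Cd74 (edgeR, adjusted p = 0.474) and -1.78 for Cd79a (0.692), so the direction of both rested on these 2 cells. With the repeats paired it was -1.50 for Cd74 (edgeR, adjusted p = 0.871) and 0.37 for Cd79a (0.973). The Ikzf1 value turned to -0.58 without label-retaining repeat 4, which holds cell 36 (edgeR, adjusted p = 0.938).

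Thinning each cell to 10000 counts left few carriers. Cd74 then had 3 carriers among 37 label-retaining cells and 2 among 24 non-label-retaining cells, Cd79a in 3 and 0, Cd79b in 2 and 0 and Ikzf3 in 2 and 0 (cells 15 and 16), Ikzf1 in 6 and 2, and Cd22 in 6 and 6. The 4 non-label-retaining cells under 10000 counts were left out.

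Partners of the 7 genes were more widely found. Of 24 genes of B-cell receptor signalling 13 were in the table and 11 were tested. These were mostly signalling genes used by many blood cells, such as the kinase gene Prkcb (30 carriers among label-retaining and 16 among non-label-retaining cells), the paracaspase gene Malt1 (31 and 12), the inositol phosphatase gene Inpp5d (30 and 12), the tetraspanin gene Cd81 (24 and 14) and the exchange factor gene Vav1 (22 and 10). In cell 16 the phosphatase gene Ptpn6, which acts downstream of Cd22, had 3522 counts and the kinase gene Syk 329, and Cd81 had 0. None of the 11 passed the test in either direction (smallest adjusted p 0.362, edgeR), and 7 had a log2 fold change above 0, with a median of 1.03 beside 1.15 for all genes. The members Cd79a and Cd22 are among the 11, and the median of the other 9 was 1.03.

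Of the Ikaros family and its chromatin partners, 8 of 13 were in the table and 5 were tested, with none past the threshold (median log2 fold change 1.91, or 1.39 over the 4 other than Ikzf1). The chromatin remodeller gene Chd4 was carried by 22 and 9 cells, the family member Ikzf5 by 13 and 1, the deacetylase gene Hdac2 by 10 and 3 and Mbd3, a methyl-CpG-binding domain gene, by 8 and 3. Ikzf2, which encodes the Ikaros relative Helios, was carried by 4 and 1, with 1438 counts in label-retaining cell 7. Of the lymphoid priming genes, 12 of 20 were in the table and 4 were tested, with none past the threshold (median 3.53, or 2.59 over the 2 other than Cd79a and Ikzf1). Mef2c was carried by 19 and 6 cells, Bcl11a by 15 and 7 and Tcf3 by 6 and 0. Of 16 pro-B and pre-B genes 4 were in the table and 2 were tested, Sox4 and Cplx2. Neither passed the threshold or had a log2 fold change above 0 (median -2.31). Sox4 was carried by 24 and 14 cells and Cplx2 by 29 and 16, with 0 and 32.8 counts in cell 16. Of the Cplx2 values above 0, 37 of 46 were not whole. Of 19 genes of MHC class II presentation 4 were in the table and 3 were tested, with none past the threshold (median 1.67, or 1.46 over the 2 other than Cd74). Beside Cd74 these were the protease gene Ctsl (17 and 14 cells), Creb1 (22 and 9) and Nfyb (4 and 1). Cell 16 had 0 counts of all 3.

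Several genes of the B-cell list were high in other cells than cell 16. Of the 5 tested none passed the threshold (median 6.12, or 1.27 over the 2 that are not members). Ralgps2 was carried by 22 and 6 cells, Spib, an Ets factor gene of B and plasmacytoid dendritic cells, by 12 and 6, and the IgE receptor gene Fcer2a by 9 and 2, with 3.03, 0 and 0 counts in cell 16. Cd37, a tetraspanin of B cells, was carried by 9 and 0 cells, with 961 counts in label-retaining cell 7 and 0 in cell 16. Of the values above 0, 30 of 32 for Ralgps2 and 8 of 12 for Fcer2a were not whole. Marker lists of other cell types were low in cell 16. Of the 8 T and NK cell genes in the table it had Cd8b1 alone (1.17 counts), of the 6 monocyte genes Cd68 alone (2 counts), and of the 5 neutrophil genes none. The median share of these 3 lists was 0% in the other 63 cells too. Dendritic cell, erythroid and megakaryocyte lists had 2 genes each with a count in cell 16. Their shares were 0.000625%, 0.00435% and 0.000357%, against medians of 0.00230%, 0.0671% and 0.00367% in the other 63 cells.

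The genes whose carriers were most like those of each member were ranked by the Jaccard index over 65 cells, the shared carriers as a share of all carriers of either, among 4247 other genes found in 5 to 40 cells. For Cd79a they were 2310001H17Rik (0.54, 3395 counts in cell 16), Fcrl6 (0.45) and the immunoglobulin heavy chain locus Igh (0.44, 31474 counts in cell 16). Fcrl6 had 0.667 counts in cell 16, and 21 of its 24 values above 0 were not whole. For Cd74 they were Ndufc2 (0.47), Pcnx4 (0.39) and Seh1l (0.38, 5946 counts in cell 16). For Ikzf1 they were 1600020E01Rik, Ubxn8 and Tom1l2 (0.60 each, 9 shared cells), all at 0 in cell 16. Of the values of Ubxn8 above 0, 12 of 16 were not whole. For Cd22 they were Tacr1 (0.75), AI314278 (0.70) and 9330159F19Rik (0.70), of whose values above 0, 25 of 39, 18 of 32 and 21 of 36 were not whole. Carriers of any 2 genes share depth and index, and these likenesses are descriptions.

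Counted over all 7 genes, a label-retaining cell carried 1.42 ± 0.483 members and a non-label-retaining cell 0.967 ± 0.452 (mean ± SD over 4 repeats). Without cells 15 and 16 the values were 1.25 ± 0.184 and 0.967 ± 0.452, and after thinning 0.606 ± 0.304 and 0.519 ± 0.393. No member was found in 6 label-retaining cells and in 10 non-label-retaining cells, and 1 member in 16 and 13, where Cd22 was the only member in 18 of the 29. The highest number was 5, in cell 15.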

How the data were processed

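The authors deposited 1 table of values per NCBI gene identifier for 65 cells, and DESeq and mm10 are named in the submitters' processing notes. Aligner and counter: not given in the sources used here. By its name the table deposited by the authors holds normalised counts, but its values carried no visible scaling (75.5% of values between 0.5 and 20 were whole within 0.0001), so they were taken for unscaled estimated counts, summed and then rounded. If the authors did scale them, totals and counts are on that scale. Of 18036 identifiers 16262 matched a RefSeq symbol, and the other 1774 held 0.108% of counts. Totals per cell ran from 86.1 to 20516069, and intervals cover counting error only.

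Counts were summed by group and repeat and tested with edgeR 4.0.16 (TMM, robust quasi-likelihood), with DESeq2 1.42.0 and limma 3.58.1 in R 4.3.3 as alternatives, for genes with a mean of at least 10 counts per cell and a count in at least 10 cells. Shares of carriers (0.5 counts or more) were compared by an exact permutation over 70 splits. Thinning drew 10000 counts per cell. Both methods were run on simulated data that were easier than these. For edgeR the simulated dispersion was 0.1, where the summed counts had a common dispersion of 3.42. Carrier shares were simulated with very large differences between groups. These runs do not show the power to find differences in the real cells. Deviations of the summed repeats from their group means correlated across groups at 0.55, 0.30, 0.17 and 0.15 for the same repeat number, each above 0.1. The highest values with another repeat number were -0.155, -0.048, 0.099 and 0.139, so repeat 4 hardly differed from them. The repeats were taken as pairs in an alternative fit only. The members and gene lists were chosen with earlier results of these data known. Named genes were the 7 members, up to 5 genes of each list found in at least 5 cells, by number of cells, and the 3 genes with the highest Jaccard index to each member found in at least 5 cells. The rule for lists was not carried through for the stem-cell identity, dendritic cell, erythroid and megakaryocyte lists. Genes of these lists that met it are mostly not named. Genes named for their count in cells 15 and 16 (Fcrla, Ptpn6, Syk, Camp, Hbb-bs, Cd8b1, Cd68, Igk and Igh) were chosen after their values were seen.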

Additional observations from a re-analysis of the deposited data

Results flagged for a closer look

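In 13 of 22 sets of 4 repeats with a range, 1 repeat stood far from the other 3. In 8 of the 13 the other 3 repeats were at 0, so that any count sets the repeat apart, and CPM and shares of the same cells are counted separately; the usual chance rate of about 1 in 20 does not apply to them. In CPM of the summed repeat, label-retaining repeat 2 stood apart for Cd74 (4358), Cd79a (1700), Cd79b (619) and Ikzf3 (430), and all 4 values rest on cells 15 and 16. Non-label-retaining repeat 2 stood apart for Cd74 (46.1) and Cd79a (10.3), which rest on 9 and 2 counts. Ikzf1 stood apart in label-retaining repeat 4 (202) and non-label-retaining repeat 1 (27.1), and Ikzf3 in non-label-retaining repeat 4 (0.566, from 1 count). In shares of cells, label-retaining repeat 2 stood apart for Cd79b (22.2%) and Ikzf3 (33.3%), non-label-retaining repeat 1 for Ikzf1 (37.5%) and non-label-retaining repeat 4 for Ikzf3 (10%). The cause of these values was not tested.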

How the results depend on the processing

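Of 160 member values under other settings, 144 kept their sign, 14 changed it and 2, both for Cd79b, went to 0, and no member passed the threshold. DESeq2 called 14 genes (8 higher and 6 lower in label-retaining cells), against 0 by edgeR. With the replicate block the log2 fold change of Cd74 was -1.50, and no other direction changed. Without cells 15 and 16 it was -5.74 for Cd74 and -1.78 for Cd79a. The Cd74 difference in carrier shares was 5.56 points at 10 counts or more and 0.193 points over pooled cells. That of Cd22 was -3.47 points at 10 counts or more and -16.2 points after thinning. Leaving out 1 repeat or 1 group's repeat at a time, the log2 fold change ran from -6.70 to 8.22 for Cd74 and from -1.47 to 7.32 for Cd79a, both below 0 without label-retaining repeat 2. It ran from -6.50 to -1.92 for Cd22 and from -0.98 to 12.08 for Ikzf1, below 0 without repeat 4. The differences in shares ran from -17.6 to -2.41 points for Cd74, 6.39 to 13.5 for Cd79a, 0 to 7.41 for Cd79b, 6.67 to 29.3 for Cd22, 9.35 to 20.5 for Ikzf1 and -3.33 to 11.1 for Ikzf3 (below 0 without repeat 2), and the number of genes called by edgeR stayed at 0. Counts of 1 to 7 in a cell are near the limit of detection at these depths.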
